A study of Mus musculus with 18 samples.

Results

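The AP-1 and ATF3 transcription factor genes described here are the AP-1 subunit genes Fos, Fosb, Fosl1, Fosl2, Jun, Junb and Jund, and the related genes Atf3, Maff and Batf. They were chosen by symbol, with earlier results of these data known, and all 10 were found among the 47729 gene identifiers of the deposited table. The samples were livers of mice that had undergone ischemia-reperfusion (IR), in which the blood supply of the liver is interrupted and then restored, or sham surgery. Each surgery was carried out in 3 genotypes, wild type (Wt), Il22-/- and Il22bp-/-, with 3 samples per genotype and surgery. The 9 IR livers therefore comprised 3 Il22-/-, 3 Il22bp-/- and 3 wild-type samples, and the 9 sham livers had the same make-up. The cytokine IL-22 signals to hepatocytes and other epithelial cells, and IL-22BP is a secreted receptor that captures it. The sources used here give no age, strain or time after reperfusion, and no detail of how the alleles were made.

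The table had 9 columns headed IR and 9 headed W, each with a number from 1 to 9 and none with a genotype. W was read as sham by elimination, because 9 sham samples remain once the IR columns are taken and only 6 samples are wild type. The comparison below is therefore IR against sham with genotypes mixed, and the spread within each surgery includes any difference between genotypes. Libraries are called by their headers. Nothing states that they came from separate animals, so the p-values measure the spread between these libraries.

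AP-1 is a dimer of basic leucine zipper proteins. JUN, JUNB and JUND can pair with each other or with the FOS proteins, while FOS proteins bind DNA only with a partner, usually a JUN protein. Fos, Jun, Junb and Atf3 are textbook immediate early genes, whose transcripts rise quickly after growth factors, stress kinases or injury without new protein synthesis. In liver, JUN is required in hepatocytes for normal regeneration, and ATF3 is a stress-induced factor that often represses inflammatory genes.

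Promoters of some of the genes are shown first, and every stretch printed holds a marked motif. Promoter windows in the RefSeq set (GRCm38.p6), from 250 bases before to 50 bases after an annotated start, were found for 9 of the 10 genes, with 11 windows in all. The following stretches are the 110 bases before the RefSeq start, 5′ to 3′ on the strand of the gene, and capitals mark the motifs TGACG, TGACGTCA, TGACATCA and TTACGTCA on either strand. The coordinates are chr12:85473780-85473889 (plus strand) for Fos, chr4:95052223-95052332 (minus) for Jun, chr8:84978749-84978858 (minus) for Junb, chr1:191183334-191183443 (minus) for Atf3 and chr15:79347410-79347519 (plus) for the second of 3 Maff windows.
Fos: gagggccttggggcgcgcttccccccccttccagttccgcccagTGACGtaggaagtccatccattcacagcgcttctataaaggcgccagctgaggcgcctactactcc
Jun: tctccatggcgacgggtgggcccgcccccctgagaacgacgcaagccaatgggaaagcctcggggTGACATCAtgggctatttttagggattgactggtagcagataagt
Junb: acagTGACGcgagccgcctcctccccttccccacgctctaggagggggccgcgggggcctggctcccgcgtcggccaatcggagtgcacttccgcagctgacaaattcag
Atf3: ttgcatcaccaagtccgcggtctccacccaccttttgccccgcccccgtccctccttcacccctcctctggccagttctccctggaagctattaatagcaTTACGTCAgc
Maff: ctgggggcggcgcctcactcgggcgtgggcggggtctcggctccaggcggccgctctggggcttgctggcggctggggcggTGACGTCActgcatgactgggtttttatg

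TGACGTCA is the cAMP response element, to which ATF and CREB proteins and JUN dimers with ATF2 can bind, and TGACG is its first part. TGACATCA is the variant of TGACGTCA in the Jun promoter. TGANTCA, searched with any base at N, is a looser form of the classical AP-1 element. Counting from -1 at the base before the start, TGACG lay at -66 to -62 in Fos, TGACATCA at -45 to -38 in Jun, TGACG at -106 to -102 in Junb, TTACGTCA at -10 to -3 in Atf3 and TGACGTCA at -29 to -22 in Maff. TGACATCA and TTACGTCA were added to the search after the windows had been read. TTACGTCA holds TGACG on the opposite strand, and TGACGTCA holds TGACG on both strands. TGACG was present in 7 of the 11 windows of these genes, which belong to 6 genes, among them Batf, and in 20.8% of all 32851 RefSeq windows of the same length. TGACGTCA was present in 1.79% of all windows, TGACATCA in 3.62%, TTACGTCA in 0.499% and TGANTCA in 7.81%, the last in none of the 11 windows of these genes. The Atf3 stretch lies 34706 bases inside the outermost GENCODE start of the gene, and 7 of its bases lie in a GENCODE exon. Among the windows not printed, those of Fosl2 and Jund and another Maff window held none of these motifs. Those of Fosb and Batf held TGACG, and the remaining Maff window held TGACG and also TGACATCA, at -45 to -38. These matches describe letters only, and their relation to the levels was not tested.

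Values are normalised read counts, that is, read counts that the authors divided by a DESeq2 size factor for each library. Fold changes are on the scale of log2(normalised count + 1), IR minus sham, from limma fitted across the 12686 genes with a mean of at least 10 normalised counts, and a gene was called at a Benjamini-Hochberg adjusted p under 0.05. The IR and sham livers differed widely: 38.3% of all genes tested were higher in IR and 37.7% were lower, 76% in all, and the median log2 fold change of all genes was 0.02. With every library scaled to the same sum, 5994 genes were higher and 3677 lower, against 4860 and 4781 with the deposited scaling, and the median of all genes was 0.26. Total reads were 10.2 to 12.6 M in the IR libraries and 10.7 to 12.2 M in 8 of the sham libraries, and were not recovered for W1. Hepatocyte markers were present in every library, but the summed level of the 13 markers was lower in IR livers, at 645733 to 1015780 normalised counts, against 2216130 to 2692300 in sham livers.

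In IR livers 9 of the 10 genes rose, none fell and Batf was not called, against 38.3% of all genes tested that rose. In 7 of the 10, every IR library lay above every sham library, which held for 19.9% of all genes tested, and in none did every IR library lie below every sham library, which held for 20.3%. The median log2 fold change of the 10 was 2.89. All 10 passed the filter on low values, but Fosb and Fosl1 passed only through their levels in IR livers. In bulk liver RNA a change in the level of a transcript per cell and a change in the share of the cells that carry it cannot be told apart. The plot of the 10 genes by library shows this separation.

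**Figure D1:**
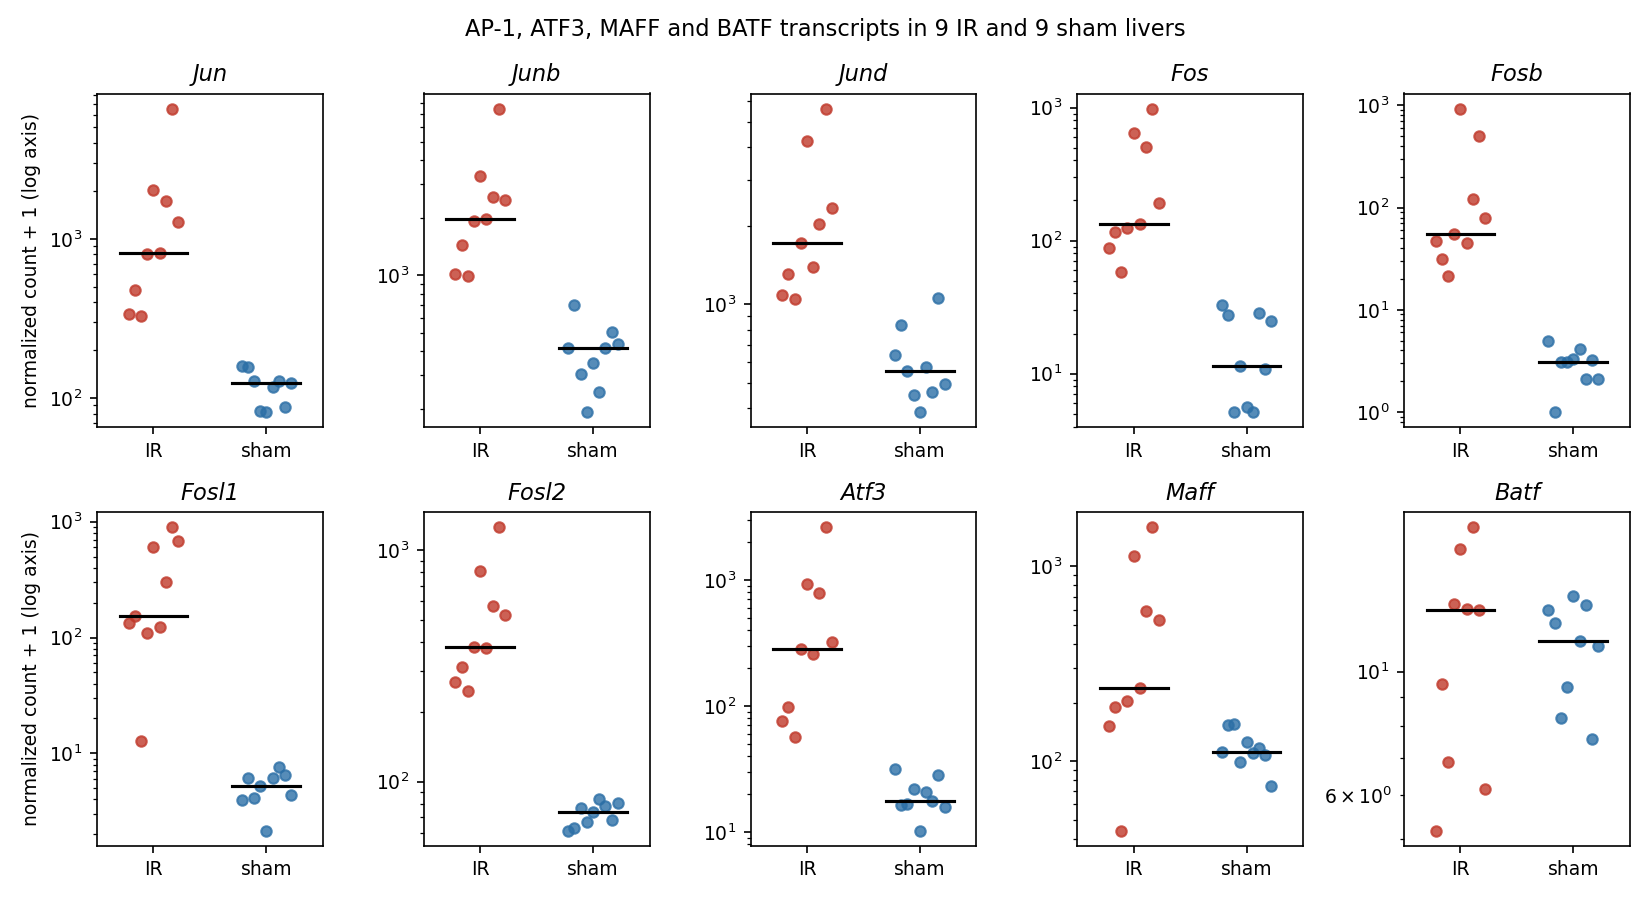
Normalised count + 1 on a log axis for each of the 10 genes in 9 IR livers (red, left) and 9 sham livers (blue, right); each point is a library and the line is the median. The IR and sham points do not overlap for Jun, Junb, Fos, Fosb, Fosl1, Fosl2 and Atf3, overlap at 1 IR library for Jund, and overlap for Maff and Batf.

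The JUN proteins take part in most AP-1 dimers, and all 3 of their genes rose. Jun (ENSMUSG00000052684, chromosome 4, 95049034 to 95052222 in GRCm38, minus strand) ranged from 327 to 6564 normalised counts in IR livers, with a median of 818, against 80.8 to 159 in sham livers, with a median of 123. The groups did not overlap, and the highest IR liver, IR8, stood well above the next, IR5. Jun averaged 1593 ± 1958 normalised counts in IR livers and 118 ± 29.5 in sham livers (SD, n = 9 each), a log2 fold change of 3.12 (SE 0.43, limma adjusted p = 1.63e-06).

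Junb (ENSMUSG00000052837, chromosome 8, 84974484 to 84978718, minus strand), which encodes a weaker transactivator than JUN, ranged from 997 to 7461 normalised counts in IR livers, with a median of 1981, against 192 to 704 in sham livers, with a median of 415. The groups did not overlap. Its log2 fold change was 2.52 (SE 0.32, limma adjusted p = 4.87e-07). Jund (ENSMUSG00000071076, chromosome 8, 70698949 to 70700616, plus strand), the member known for steady expression in resting cells, ranged from 1044 to 5619 normalised counts in IR livers, with a median of 1719, against 386 to 1058 in sham livers, with a median of 553. Only IR3 failed to exceed the highest sham liver, W8. Jund rose by a log2 fold change of 1.75 (SE 0.29, limma adjusted p = 1.63e-05), the smallest change of the 7 Fos and Jun family genes.

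The FOS proteins are the partners of JUN proteins in many AP-1 dimers. Fos (ENSMUSG00000021250, chromosome 12, 85473890 to 85477273, plus strand) ranged from 56.8 to 979 normalised counts in IR livers, with a median of 132, against 4.14 to 31.7 in sham livers, with a median of 10.5. The IR livers IR8, IR5 and IR7 stood apart at 979, 641 and 507, and the other 6 lay between 56.8 and 189. Fos rose by a log2 fold change of 3.95 (SE 0.54, limma adjusted p = 1.47e-06).

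Fosb (ENSMUSG00000003545, chromosome 7, 19302696 to 19310051, minus strand), an immediate early gene with a long and a truncated product, ranged from 20.6 to 929 normalised counts in IR livers, with a median of 54.1, against 0 to 3.96 in sham livers, with a median of 2.10. Sham livers were thus near the limit of detection, with 0 reads in W2. Its log2 fold change was 5.02 (SE 0.59, limma adjusted p = 1.71e-07). Fosl1 (ENSMUSG00000024912, chromosome 19, 5447547 to 5455946, plus strand), which encodes FRA1 and is itself a target of AP-1, ranged from 11.8 to 896 normalised counts in IR livers, with a median of 153, against 1.15 to 6.66 in sham livers, with a median of 4.20. IR3, at 11.8, was far below the next IR liver. Fosl1 had the largest log2 fold change of the 10 genes, 5.32 (SE 0.59, limma adjusted p = 7.04e-08), and 0.181% of all genes tested had a larger one. For these low sham levels the pseudocount sets the size: with a pseudocount of 8 the log2 fold change was 3.34 for Fosb and 4.13 for Fosl1.

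Fosl2 (ENSMUSG00000029135, chromosome 5, 32135801 to 32157842, plus strand), which encodes FRA2, was the most even of the family. It ranged from 244 to 1253 normalised counts in IR livers, with a median of 379, against 60.5 to 82.9 in sham livers, with a median of 72.7. Its log2 fold change of 2.67 had the smallest standard error of the 10 genes, 0.24, and the smallest limma adjusted p, 3.92e-09.

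Atf3 (ENSMUSG00000026628, chromosome 1, 191170296 to 191218039, minus strand) ranged from 55.8 to 2615 normalised counts in IR livers, with a median of 282, against 9.23 to 30.7 in sham livers, with a median of 16.6. The groups did not overlap, and IR8 was again far above the next IR liver, IR5, at 932. Atf3 averaged 602 ± 816 normalised counts in IR livers and 18.9 ± 6.69 in sham livers (SD, n = 9 each). Its log2 fold change was 3.98 (SE 0.56, limma adjusted p = 2.30e-06).

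MAFF is a small MAF protein that lacks a transactivation domain and pairs with NRF2 and BACH1 as well as with itself. Maff (ENSMUSG00000042622, chromosome 15, 79346621 to 79359076, plus strand) ranged from 43.1 to 1591 normalised counts in IR livers, with a median of 238, against 73.2 to 154 in sham livers, with a median of 110.02. The groups overlapped at both ends: 7 of the 9 IR livers exceeded the highest sham liver, whereas IR3 lay below the lowest. Maff was called with a log2 fold change of 1.48 (SE 0.49, limma adjusted p = 0.00956).

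BATF is an AP-1 factor of lymphocytes and myeloid cells that pairs with JUN proteins and IRF4 or IRF8. Batf (ENSMUSG00000034266, chromosome 12, 85686669 to 85709087, plus strand) ranged from 4.18 to 17.2 normalised counts in IR livers, with a median of 11.9, against 6.58 to 12.7 in sham livers, with a median of 10.4. Of the IR livers, 5 lay above the sham median and 4 below it. The log2 fold change was -0.07 (95% confidence interval -0.59 to 0.46, limma adjusted p = 0.816), and its sign turned under several alternatives. Markers of lymphocytes and NK cells fell at the same time: of 15 listed, 8 were tested and all 8 were lower in IR livers, with a summed level of 33.4 to 80.7 normalised counts in IR livers against 207 to 351 in sham livers. Most monocyte and neutrophil markers rose. Of 10 monocyte markers tested, 7 were higher and 1 was lower, and of 12 neutrophil markers tested, 11 were higher and 1 was lower. Most of those that were higher passed the filter on low values only through their levels in IR livers. All 8 lymphocyte and NK markers passed it only through their levels in sham livers. The filter thus favoured the direction of these markers. Over all genes tested, 38.3% were higher and 37.7% were lower. The part of these cells in the level of Batf was not tested.

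**Figure D2:**
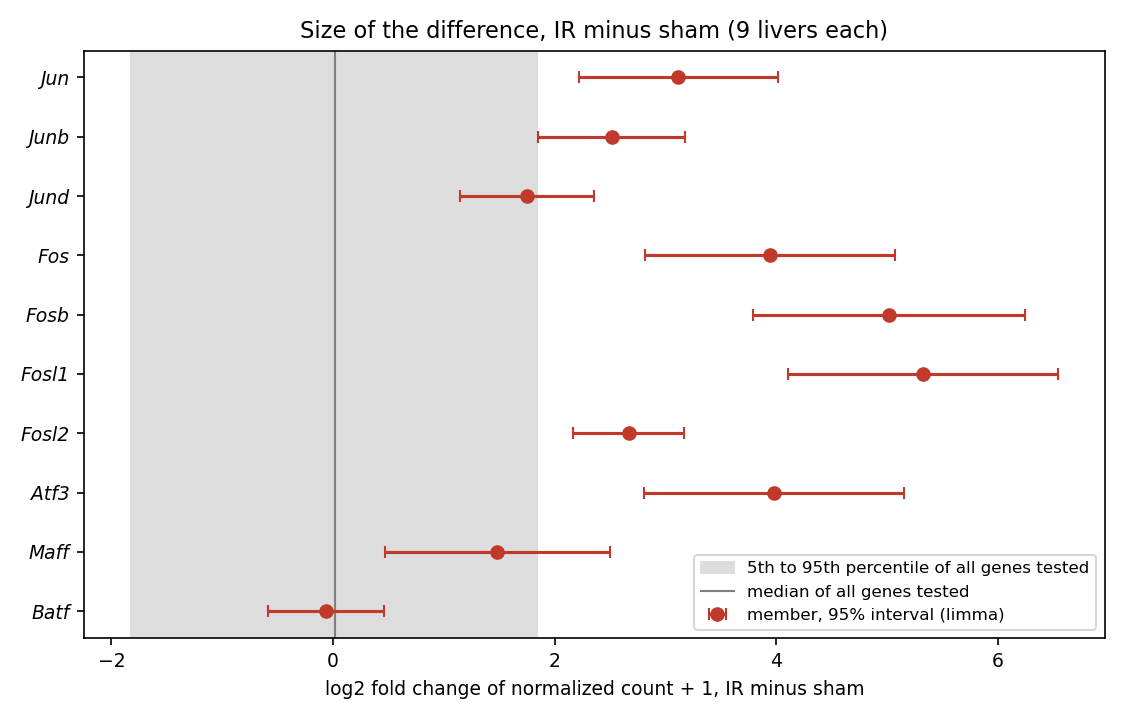
Log2 fold change of normalised count + 1, IR minus sham, for each gene with its 95% confidence interval from limma (9 libraries per surgery). The grey band spans the 5th to the 95th percentile of all genes tested, -1.83 to 1.84; 7 genes lie above the band, Jund and Maff lie within its upper part and Batf lies near 0.

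An exact two-sided permutation test of each gene alone, over all 48620 assignments of the libraries to 9 and 9, gave 4.11e-05, the smallest p that it can give, for the 7 genes whose groups did not overlap. It gave 8.23e-05 for Jund, 0.0155 for Maff and 0.781 for Batf.

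Reads of some of the genes may be shared with overlapping genes, since the strand setting of the authors' counting is not given. Fosl1 overlaps Ccdc85b, which had a median of 131 normalised counts in IR livers and 317 in sham livers. Junb overlaps Prdx2, which had a median of 875 in IR livers and 1285 in sham livers. Both partners had lower medians in IR livers, whereas Fosl1 and Junb had higher ones. Whether reads were shared was not tested. Jun overlaps the antisense RNA Junos, which had a median of 9.68 normalised counts in IR livers and 4.20 in sham livers, a small fraction of Jun. The antisense RNA inside Jund, Gm11175, was at 0 in every library.

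Levels of different genes were compared per kilobase of exon, using the merged exons of GENCODE vM21. In IR livers the order of the mean level was Jund, Junb, Jun, Atf3, Maff, Fosl1, Fos, Fosl2, Fosb and Batf, and in sham livers it was Jund, Junb, Maff, Jun, Atf3, Fosl2, Batf, Fos, Fosl1 and Fosb. Jund averaged 1381 ± 947 normalised counts per kb in IR livers and 363 ± 128 in sham livers (SD, n = 9 each). Neighbours in this order often could not be separated: in IR livers Atf3 exceeded Maff in 5 of 9 libraries, Maff exceeded Fosl1 in 6 and Fosb exceeded Batf in 5. In sham livers Atf3 exceeded Fosl2, Fosl2 exceeded Batf and Batf exceeded Fos in 5 of 9 libraries each.

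The make-up of the pool of the 7 Fos and Jun family transcripts was described from the same levels per kb. Jund made up 43.3% ± 5.65 of the pool in IR livers and 61.5% ± 6.85 in sham livers (SD, n = 9 each). The highest Jund share of an IR liver, 51.3%, was below the lowest of a sham liver, 53.2%. The share of Jun was 12.1% ± 4.25 in IR livers and 6.55% ± 1.53 in sham livers. The 4 Fos family genes together made up 10.3% ± 3.49 of the pool in IR livers, ranging from 4.79% to 14.9%, and 2.93% ± 0.902 in sham livers, ranging from 1.58% to 4.47%. JUN family transcripts were thus the larger part in every library of both surgeries. Fosl1 held 4.38% ± 2.61 of the pool in IR livers and 0.358% ± 0.160 in sham livers, and the share of Junb was 34.3% ± 3.88 in IR livers and 29.1% ± 6.13 in sham livers.

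**Figure D3:**
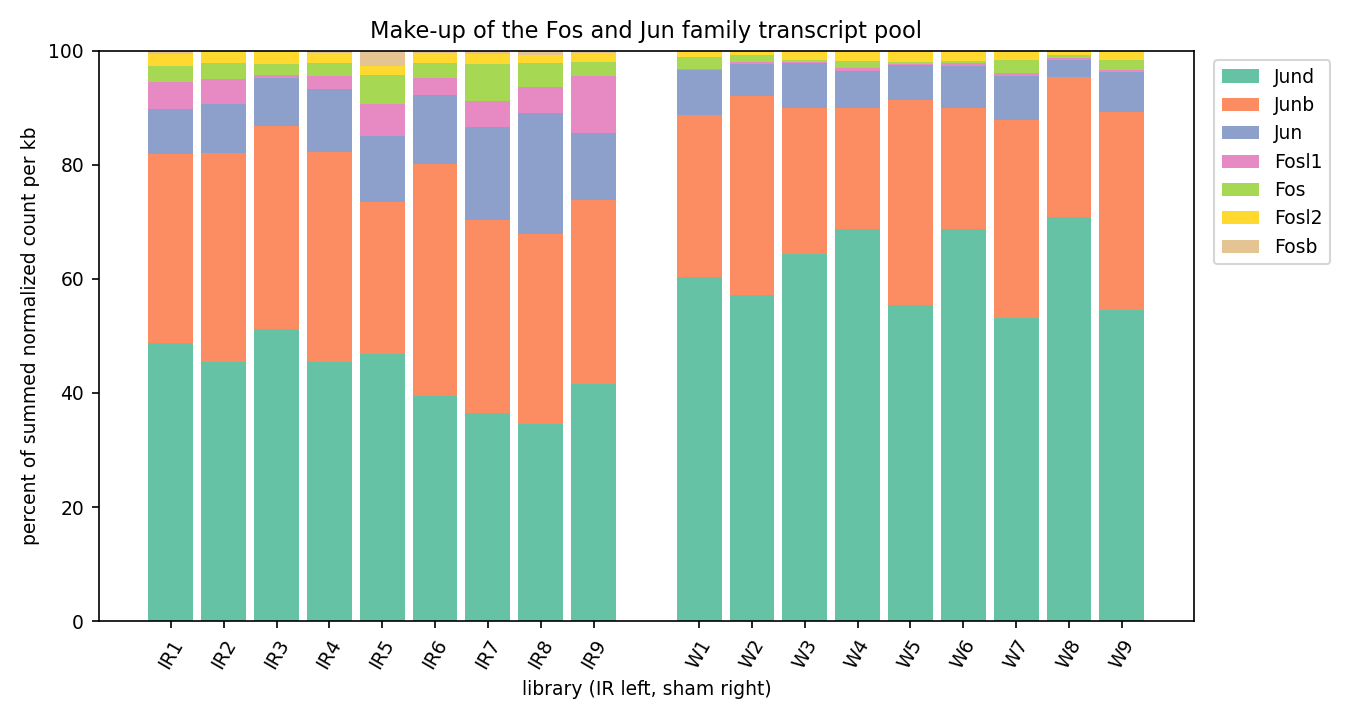
Percent of the summed normalised count per kb of the 7 Fos and Jun family genes held by each gene, one bar per library, with the 9 IR livers on the left and the 9 sham livers on the right. Jund holds 34.6% to 51.3% of each IR bar and 53.2% to 70.8% of each sham bar.

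The IR livers differed strongly among themselves, and they did so in nearly the same order for 9 of the 10 genes. The highest IR level was 20.1 times the lowest for Jun, 46.8 times for Atf3 and 5.14 times for Fosl2. Among sham livers the same ratio was 1.96 for Jun, 3.33 for Atf3 and 1.37 for Fosl2. On the log2 scale the SD was larger among IR than among sham livers for all 10 genes, for example 1.83 among IR livers against 0.49 among sham livers for Atf3, and 1.39 among IR livers against 0.37 among sham livers for Jun.

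IR8 had the highest level of 8 of the genes, and IR3 had the lowest level of 9. IR5 was among the highest 3 livers for all 10 genes, IR8 for 9 and IR7 for 8. IR3 was among the lowest 3 for all 10, and IR1 and IR2 for 8 each. Fos, Jun, Junb and Maff placed the 9 IR livers in an identical order, from IR3 through IR1, IR2, IR4, IR6, IR9, IR7 and IR5 to IR8. Relative to the sham mean, Maff spanned -1.38 in IR3 to 3.80 in IR8 on the log2 scale, and Jun spanned 1.51 to 5.83.

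**Figure D4:**
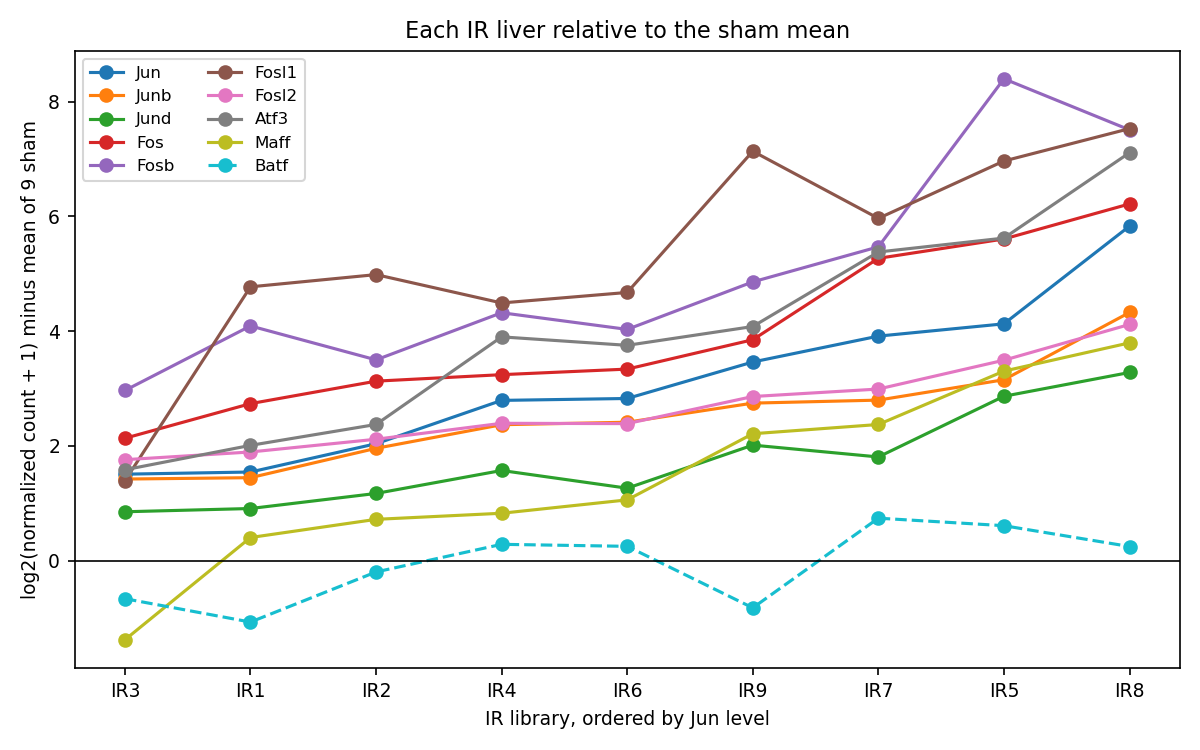
Log2(normalised count + 1) of each gene in each IR library minus the mean of the 9 sham libraries, with libraries ordered by their Jun level. The lines of Fos, Jun, Junb and Maff climb at every step from IR3 to IR8, and the dashed line of Batf stays between -1.07 and 0.74.

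Within the 9 IR livers, all 36 pairs among the 9 genes other than Batf correlated at a Benjamini-Hochberg adjusted p under 0.05 over the 45 pairs (exact permutation test over all pairings, two-sided). Pearson's r of these 36 pairs ranged from 0.78 to 0.99, with a median of 0.93, and from 0.64 to 0.99 without the 2 livers farthest from the median of the first gene of the pair. For Jun and Atf3, r was 0.985 and Spearman's rho was 0.983 (exact permutation p = 5.51e-06 and 4.96e-05, adjusted p = 2.25e-05 and 1.31e-04, n = 9), and r was 0.98 without IR3 and IR8. For Fos and Jun, r was 0.95 and rho was 1 (exact permutation p = 2.76e-06 and 5.51e-06, adjusted p = 2.25e-05 and 3.54e-05, n = 9), and r was 0.92 without IR5 and IR8. Fosl1 had an r of 0.80 to both Jun and Atf3, and of 0.95 to Maff. Batf was past the threshold with 1 partner, Atf3, at r = 0.70 and rho = 0.58 (exact permutation p = 0.0385 and 0.108, adjusted p = 0.0468 and 0.128, n = 9). With equal column sums Batf was past the threshold with 3 partners, Fos, Jun and Atf3. Differences between the 3 genotypes and differences between livers of one genotype cannot be told apart in these correlations.

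Many other genes followed the same order. Of the 12686 genes tested, 11.3% had an r above 0.8 to Jun across the IR livers, and 8.05% had one under -0.8. The median r of Jun to the other 8 genes was 0.95, a value that 0.978% of all genes tested reached. Among sham livers none of the 45 pairs passed the adjusted threshold with either Pearson's r or Spearman's rho, and none had an exact permutation p of r under 0.05 before adjustment. Pearson's r of the pairs without Batf ranged from -0.61 to 0.59 there. Fosb and Fosl1 rest on few reads in sham livers. The difference in r between the surgeries was not tested.

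**Figure D5:**
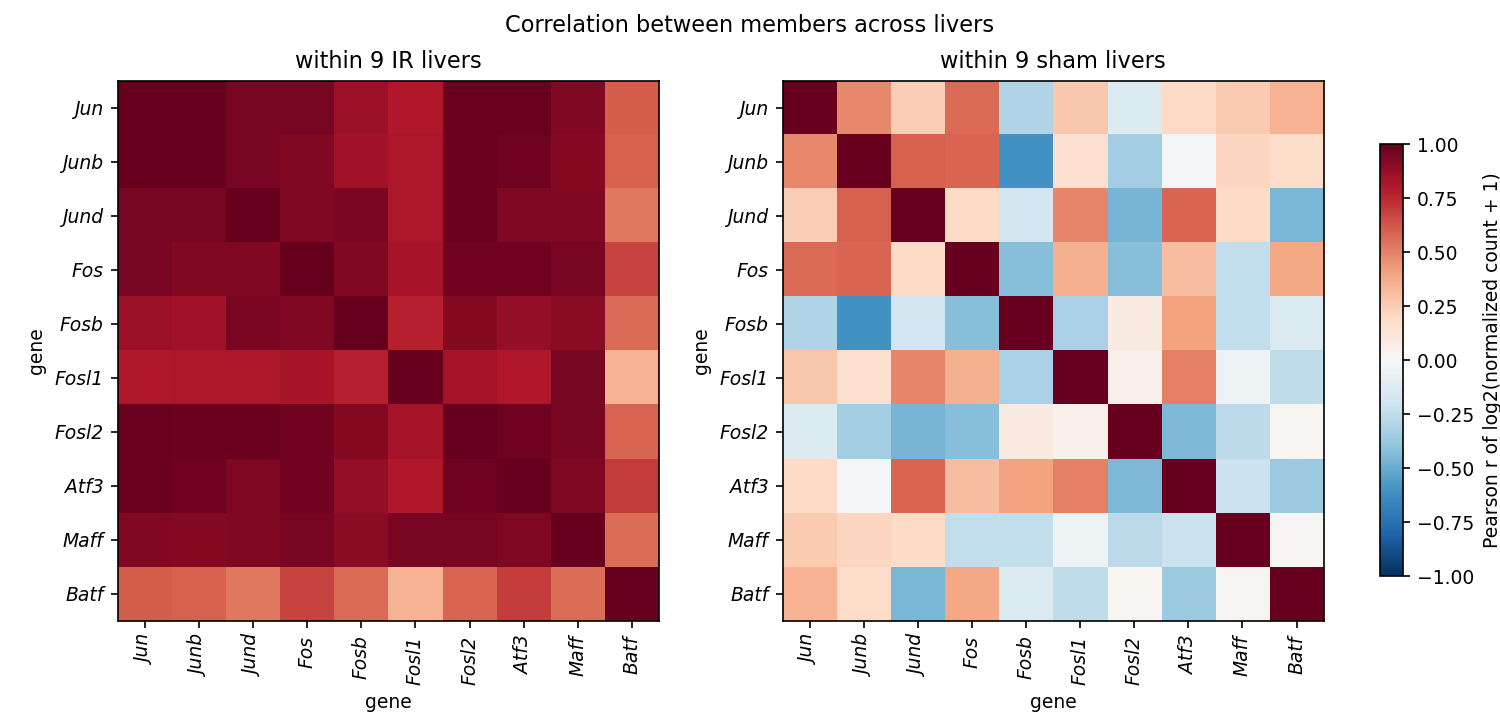
Pearson's r of log2(normalised count + 1) for each pair of the 10 genes across the 9 IR livers (left) and across the 9 sham livers (right). In IR livers r is at least 0.78 for every pair without Batf, and in sham livers it lies between -0.61 and 0.59 for the same pairs.

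Markers of other cells moved with the AP-1 genes across the IR livers. The sum of 14 neutrophil markers other than Lcn2 was 417 to 4909 normalised counts in IR livers, lowest in IR3 and highest in IR8, against 164 to 270 in sham livers. Its r was 0.95 with Fos, 0.91 with Jun and 0.94 with Atf3, with rho of 0.93, 0.93 and 0.88. The exact permutation p of r was 7.72e-05, 0.00117 and 4.00e-04 (n = 9), with adjusted p of 0.00255, 0.00964 and 0.00659 over 33 relations, and 0.00495, 0.00495 and 0.0169 for rho. Without IR3 and IR8, r was 0.95, 0.86 and 0.90.

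Lcn2, which stressed hepatocytes also express, was set apart after its values were seen, because it made up 87.7% to 99.3% of the summed level of all 15 markers in IR livers and 40.5% to 60.2% in sham livers. It averaged 46582 ± 13626 normalised counts in IR livers and 214 ± 49.0 in sham livers (SD, n = 9 each). With Lcn2 the sum was 32051 to 63034 normalised counts in IR livers and 360 to 516 in sham livers, and its r turned negative, at -0.80 with Fos, -0.73 with Jun and -0.73 with Atf3. Spearman's rank correlation was -0.73, -0.73 and -0.77 (exact permutation p of r 0.0131, 0.0250 and 0.0322, adjusted p 0.0479, 0.0687 and 0.0759, and for rho 0.0856, 0.0856 and 0.0841, n = 9). Without IR7 and IR9, r was -0.94, -0.83 and -0.84. None of the 15 markers was at 0 in all libraries of a surgery.

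The sum of 8 cholangiocyte markers was 1066 to 14816 normalised counts in IR livers, lowest in IR3 and highest in IR5, against 453 to 831 in sham livers. Most of it was Spp1 and Sox9, which are not restricted to cholangiocytes. Spp1 is also in the list of genes known as AP-1 targets, described below. Its r was 0.89 with Fos, 0.79 with Jun and 0.86 with Atf3, with rho of 0.93, 0.93 and 0.95 (exact permutation p of r 6.56e-04, 0.0116 and 0.00278, adjusted p 0.00722, 0.0479 and 0.0183, and for rho 0.00495 each, n = 9). Without IR3 and IR5, r was 0.90, 0.85 and 0.89. The erythroid sum had an r of 0.80 with Fos, 0.76 with Jun and 0.79 with Atf3 (exact permutation p 0.00592, 0.0199 and 0.00999, adjusted p 0.0326, 0.0597 and 0.0471, n = 9), which was 0.61, 0.46 and 0.51 without IR3 and IR8, and no rho passed adjustment.

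In all, 9 of the 33 relations passed adjustment with Pearson's r and 6 with Spearman's rho, over 11 measures. None passed for the hepatocyte, Kupffer cell, monocyte, lymphocyte, endothelial or stellate cell sums or the share of mitochondrial transcripts. Most of the monocyte sum was Fn1, at 22220 to 52364 normalised counts in IR livers against 22891 to 52655 for the sum. Most of the hepatocyte sum was Alb, at 329683 to 687471 in IR livers against 645733 to 1015780 for the sum. Relations of these sums without Fn1 or Alb were not tested. The r of the stellate cell sum was 0.75 with Fos, 0.73 with Jun and 0.66 with Atf3, and 0.27, 0.09 and 0.02 without IR5 and IR8. The r of the Kupffer cell sum was 0.28, 0.35 and 0.27 with Fos, Jun and Atf3, and 0.62, 0.77 and 0.75 without IR3 and IR4. The part of these cells in the levels of the AP-1 genes was not tested.

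Genes around AP-1 were taken from 4 lists, which were drawn up with earlier results of these data known. Their shares beside those of all genes are therefore a description. Of 22 other partners of the AP-1 and ATF families, 20 were tested, of which 11 rose (55%) and 4 fell (20%). Over all genes tested, 38.3% rose and 37.7% fell. The median log2 fold change of the partners was 0.34. With every library scaled to the same sum, 1 of the partners fell. Ddit3, the stress factor CHOP, averaged 248 ± 52.8 normalised counts in IR livers and 66.5 ± 14.5 in sham livers (SD, n = 9 each), a log2 fold change of 1.88 (limma adjusted p = 1.77e-10). Atf5, Cebpd and Mafk rose by log2 fold changes of 1.46, 1.46 and 1.43.

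Of 25 kinases and factors upstream of Fos and Jun, 23 were tested, of which 8 rose and 5 fell, and the 34.8% that rose is close to the 38.3% of all genes. The 2 others, Mkl1 and Mkl2, were looked up by these symbols only. With every library scaled to the same sum, 16 rose and 3 fell, so the balance of this list depends on the scaling. Map2k6, a kinase that activates p38, averaged 17.8 ± 6.86 normalised counts in IR livers and 127 ± 28.4 in sham livers (SD, n = 9 each), a log2 fold change of -2.83 (limma adjusted p = 2.40e-10). Gadd45g and Gadd45b, which can activate the stress kinase MEKK4, rose by 3.59 and 3.09 on the log2 scale, and Srf, the serum response factor that drives Fos transcription, rose by 1.30. Their limma adjusted p was 2.68e-06, 4.69e-06 and 6.45e-08.

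Of 28 genes known as AP-1 targets, 25 were tested, of which 21 rose (84%) and 1 fell (4%). Over all genes tested, 38.3% rose and 37.7% fell. The median log2 fold change of the targets was 2.29. Cdkn1a, the cell cycle inhibitor p21, averaged 1794 ± 1068 normalised counts in IR livers and 29.5 ± 12.3 in sham livers (SD, n = 9 each), a log2 fold change of 5.74 (limma adjusted p = 6.92e-12). Timp1, an inhibitor of matrix metalloproteinases, rose by 5.04 on the log2 scale and Sphk1, a sphingosine kinase, by 5.02. Both, and several others of the 21 that rose, passed the filter on low values only through their levels in IR livers. The filter thus favoured their direction. The 1 gene of this list that fell was the cyclin D1 gene Ccnd1, with a log2 fold change of -2.44 (limma adjusted p = 4.08e-07), which was named after its value was seen. These genes have other regulators, and the part of AP-1 was not tested.

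Of 24 stress genes that are commonly found with Atf3, 21 rose and none fell by limma, and 22 rose and none fell by edgeR. The 21 were 87.5% of the list, whereas 38.3% of all genes tested rose and 37.7% fell by limma. Some of the 21, Hspa1a and Slc7a11 among them, passed the filter on low values only through their levels in IR livers. Gadd45a and Gadd45b are also in the list of upstream genes. None of the 24 had a negative fold change at an unadjusted p under 0.05. The median log2 fold change was 1.96. Hspa1a and Hspa1b, the inducible HSP70 genes, rose by 5.06 and 3.92 on the log2 scale, and the pair is near-identical in sequence, so that reads may be split between them. Ier3, an immediate early gene, rose by 4.26, and Slc7a11, the cystine transporter, rose by 3.97.

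The genes most like Fos, Jun and Atf3 were sought among all genes tested, by Pearson's r over the 18 libraries after the mean of each surgery had been subtracted. The points share the size factors and the genotype make-up, and the values are a description. The log2 SD was 1.39 among IR and 0.37 among sham livers for Jun, and 1.83 and 0.49 for Atf3. The r to these genes therefore rests mostly on the IR livers. For Fos the SD was 1.41 among IR and 1.13 among sham livers. The nearest to Fos were Flnc (r = 0.93), Btg2 (r = 0.91) and Efna1 (r = 0.89). The nearest to Jun were Zfp36, Slc2a1 and Cxcl10 (r = 0.95 each). The nearest to Atf3 were Clic1 (r = 0.96), Ccl3 (r = 0.94) and Slc15a3 (r = 0.94). Cxcl10 and Clic1 were not called between the surgeries: Cxcl10 had a log2 fold change of 0.43 (limma adjusted p = 0.350) and Clic1 one of 0.22 (limma adjusted p = 0.188).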

How the data were processed

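RNA from 18 mouse livers was extracted with Trizol and made into libraries with a NEBNext Ultra kit, per the labels' protocols. Trimmomatic 0.33, STAR 2.5.0a and DESeq2 1.14 with GRCm38 are named in the submitters' processing notes. The sources used here do not give the read counter, annotation, strand setting or filters. The deposited values are a signal of gene read counts divided by a size factor per library, by the name of the table and its values. In 17 columns 100% of the values above 0 were whole multiples of the smallest one (tolerance 0.001 reads), which gave back whole reads. In W1 the step lay within 1% of 1, so its reads were not taken as recovered.

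From these values log2(normalised count + 1) was computed and IR was compared with sham in limma 3.58.1 with trend (R 4.3.3), over genes with a mean of at least 10. No genotype could enter the fit. Identifiers were paired with GENCODE vM21 symbols. edgeR 4.0.16 and DESeq2 1.42.0 were run on the whole reads of 17 libraries as alternatives. The closest 2 libraries of a surgery differed by more than sampling noise, with a chi-square per gene of 7.86 or more. The members and the lists were chosen with earlier results of these data known. Named were all 10 members, up to 4 called genes with the largest change per list (marker lists are given as counts and sums), and the 3 genes most like Fos, Jun and Atf3. A gene named by this rule is not reported here. Relations of Fos, Jun and Atf3 to all marker sums, and to the neutrophil sum without Lcn2, were added after seeing the data.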

Additional observations from a re-analysis of the deposited data

Results flagged for a closer look

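Fosl1 in IR3 was far from the other IR livers, at 11.8 normalised counts, with a gap to the next liver that was 0.505 of the range on the log2 scale, above Dixon's critical value for 9 values. It was the 1 such library among 20 groups of 9 libraries, and chance gives about 1 in 20. IR3 also had the lowest level of 8 other genes of the 10. Without IR3 the log2 fold change of Fosl1 was 5.82 and without each other library in turn it was 5.05 to 5.43.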

How the results depend on the processing

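The calls of the 9 genes that rose kept their direction and their side of the threshold under all alternatives run: 2 pseudocounts, 2 filters, 2 scalings, robust limma with array weights, edgeR, DESeq2, the block below and leaving out each library in turn. Without one library, 4744 to 4860 genes were higher and 4686 to 4811 lower over all genes, 9 of the 10 genes were higher each time, and Maff, the weakest, had a log2 fold change of 1.19 to 1.84 with a limma adjusted p of at most 0.0210. Across the other alternatives the log2 fold change ranged from 3.31 to 4.50 for Fos, 3.34 to 6.86 for Fosb, 4.13 to 6.28 for Fosl1, 2.73 to 3.82 for Jun, 3.55 to 5.11 for Atf3 and 1.12 to 2.15 for Maff. Batf turned positive with equal column sums (0.15), edgeR (0.052) and DESeq2 (0.069), and spanned -0.13 to 0.058 without one library; it fell under the filter in 2 of these 18 fits and with a mean of at least 50. With equal column sums, an alternative added for the lists after seeing the data, 1 AP-1 or ATF partner fell, and 16 upstream genes rose and 3 fell; the cause was not tested. The header numbers are not explained in the labels and do not pair the libraries: IR and W libraries of one number had correlated deviations of -0.10 to 0.12, over 0.1 in 1 of 9 pairs. With a replicate block by that number, 4821 genes were higher and 4751 lower. Low reads limit Fosb, Fosl1 and Batf.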

Other observations

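Among sham livers Fos had 31.7, 27.7, 26.5 and 23.7 normalised counts in W1, W7, W2 and W9, and from 4.14 to 10.5 in the other 5 libraries. Fosl2 stayed between 60.5 and 82.9 in all sham livers. Markers of other liver cells also moved between the surgeries, where 38.3% of all genes tested rose and 37.7% fell. Of 12 Kupffer cell markers, 1 rose and 10 fell, and the summed level was 3923 to 6437 normalised counts in IR livers and 9026 to 13075 in sham livers. Of 12 endothelial markers, 5 rose and 5 fell, of 12 stellate cell markers, 6 rose and 5 fell, of 6 cholangiocyte markers tested, 5 rose and none fell, and of 5 erythroid markers tested, none rose and 1 fell. Of 13 hepatocyte markers, 1 rose and 10 fell.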
